A study of Mus musculus with 12 samples.

Results

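Interleukins and their receptors were taken here as every row of the count table whose gene symbol begins with Il followed by a digit, which gave 84 members among 25239 genes. They comprise secreted ligands, ligand antagonists and binding proteins, receptor chains, the antisense transcript Il1bos, and Il4i1 and Il4i1b, which are named for induction by an interleukin and are not interleukins themselves. The libraries came from frozen pieces of brain and liver of male C57BL6/J wild-type mice aged 24 months. The heat stress groups had been kept at 40 ± 0.5 °C and 60% ± 5% relative humidity for 3 hours per day on 15 days, and the control groups were mice of the same strain, sex and age that are labelled only as control. Each of the 4 groups held 3 libraries, 12 in all, and the labels do not tie a brain library to a liver library of the same mouse. By the methods there were as many mice in a group as libraries, 3, and the p-values measure the spread between these libraries.

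Interleukins are secreted cytokines that carry signals between immune cells, and between immune cells and their surroundings, by binding receptor chains that pair on the target cell. Receptors of the IL-1 and IL-17 families signal through adaptor proteins to NF-kB, while receptors of the common gamma chain, IL-6, IL-12 and IL-10 families signal through JAK kinases and STAT factors. Most interleukin messages are scarce in resting tissue, whereas many receptor chains are expressed steadily by glia, endothelium, hepatocytes and resident macrophages. The question put to the data was which members could be measured at all in each tissue, and whether their levels differed between heat stress and control.

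The libraries held between 10466198 and 15609040 counts, and the members together received 4802 to 7908 counts per library. In brain, the summed normalized level of 7 neuronal markers lay between 6857 and 9233 normalized counts, and in liver the sum of 8 hepatocyte markers lay between 76040 and 118800. Normalized counts are counts scaled to a common library size (CPM after TMM scaling). A pair of liver libraries stood apart. The sum of 9 skeletal muscle genes was 407 in control replicate 1 and 2216 in heat stress replicate 2, against 1.03 to 7.18 in the other liver libraries. Neuronal markers were also highest in liver control replicate 1, at 35.6 against 16.0 to 20.0 in the rest of the liver. Values without these libraries are given beside the liver members that came closest to a difference. Column names of 3 liver libraries, control replicate 2 and heat stress replicates 1 and 3, carry the suffix 2nd, which neither the labels nor the methods explain. Group means within the libraries with and without it are therefore given for the tested liver members that the rule of naming selects. Both libraries with muscle transcripts lack the suffix, and heat stress replicate 2 is the only heat stress library without it. A direction that turns with the suffix therefore cannot be told apart from the muscle transcripts or from single libraries.

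One pair of receptor genes shows what a count of 0 can mean in this table. Il11ra1 (ENSMUSG00000073889.10, chr4:41699989-41769474, plus strand, GRCm38) and Il11ra2 (ENSMUSG00000078735.3, chr4:42656355-42661893, minus strand) both encode the alpha chain of the IL-11 receptor. Their coding sequences are each 1296 bases long in GENCODE M21 and differ at 13 bases, an identity of 99.0%. The 60-base stretch of the coding sequence with the most differences, from base 1030 to base 1089, is shown for both genes, with the 3 bases at which they differ in capitals and the rest in lower case.
Il11ra1: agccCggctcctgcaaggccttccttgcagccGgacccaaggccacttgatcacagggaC
Il11ra2: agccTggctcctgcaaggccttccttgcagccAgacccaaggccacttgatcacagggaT
Il11ra2 was listed at 0 in all 12 libraries, while Il11ra1 was among the 5 most abundant members per kilobase in both tissues. Every 50-base window of the annotated Il11ra2 transcript occurs also in Il11ra1 or in the further copy Gm13305, and 46.3% of the windows of Il11ra1 occur in its copies. How reads that match several genes were treated is not given in the sources used here, so the counts of Il11ra1 may hold reads of its copies, and the 0 of Il11ra2 cannot be read as a silent gene. The next largest shares of such windows were 435 of 1061 for Il22, 27.5% for Il2rg, 13.9% for Il10rb and 12.6% for Il2. Every other member found in GENCODE M21 was at 5.63% or less, and Il4i1b, not found there, has no value.

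A member was called tested in a tissue where its counts passed the filter on low counts before the fit, counted where it failed that filter but had more than 3 counts in at least 1 library of the tissue, at the floor where its highest library held 1 to 3 counts, and absent from the counts where every library held 0. In brain 31 members were tested, 19 were counted, 19 were at the floor and 15 had 0 counts. In liver the same classes held 31, 12, 22 and 19 members. The tested members were 24 in both tissues, 7 in brain alone (Il11, Il12a, Il17d, Il17rd, Il1rapl1, Il1rapl2 and Il1rl2) and 7 in liver alone (Il18rap, Il1b, Il1rn, Il20rb, Il22ra1, Il27ra and Il2rb). The remaining 46 members could be tested in neither tissue. A floor of 3 counts corresponds to a share of 1.92e-05% to 2.87e-05% of a library, which is the largest share that a count of 0 allows here and covers counting error only.

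**Figure D1:**
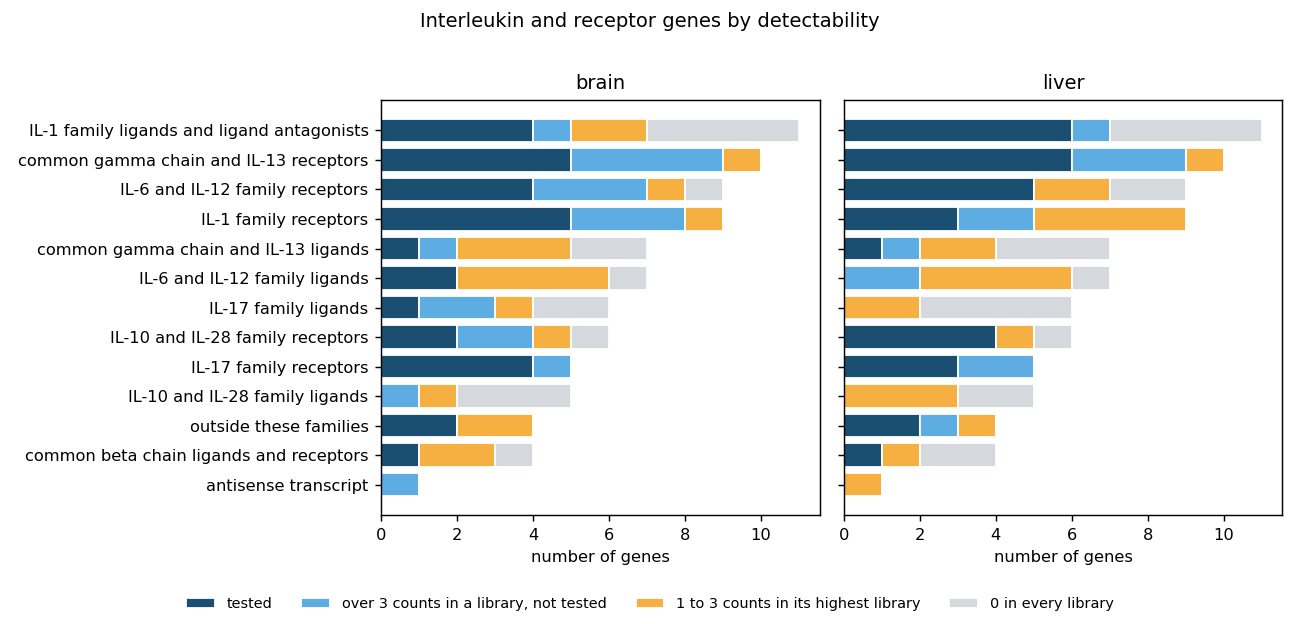
Number of members in each family (horizontal axis) by detectability class in the 6 brain libraries and the 6 liver libraries, with families on the vertical axis. In brain 4 of 5 IL-17 receptors were tested and 1 of 6 IL-17 ligands was, while in liver 6 of 11 IL-1 family ligands were tested and 3 of 9 IL-1 family receptors were.

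Ligands made up most of what was not seen. Among the 7 ligands of the common gamma chain receptors and IL-13, which drive the growth and differentiation of lymphocytes, only Il15 was tested in either tissue. Il2 reached at most 3 counts in any library, Il4 at most 2, and Il9 was at 0 in all 12 libraries. Of the 6 IL-17 ligands, Il17d was tested in brain and none in liver, and Il17a and Il17f, the products of type 17 T cells and related lymphocytes, were at 0 in all 12 libraries. None of the 5 listed ligands of the IL-10 family was tested, and Il10 itself, an anti-inflammatory cytokine, had 1 count in total in brain and 7 in liver. Il6, the main inducer of the hepatic acute phase response, had 2, 2 and 1 counts in control brain and 2, 0 and 0 in heat-stressed brain. In liver, Il6 had 1, 0 and 0 counts in the controls and 4, 0 and 3 in heat stress, so that no difference in Il6 was detectable at this depth in either tissue. Altogether 12 members were at 0 in all 12 libraries (Il11ra2, Il17a, Il17f, Il1f10, Il1f6, Il1f8, Il20, Il22ra2, Il24, Il3, Il31 and Il9), and 27, these included, never exceeded 3 counts.

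Fewer receptor chains than ligands were at the floor or at 0. Each of the IL-17 receptor genes was above the floor in both tissues, with 4 of 5 tested in brain and 3 of 5 in liver. Of 10 receptor chains of the common gamma chain group, 5 were tested in brain and 6 in liver, and Il9r was the only one at the floor in both. Among 9 IL-1 family receptor genes, 5 were tested in brain and 3 in liver. Levels between genes were compared only per kilobase of annotated exon. On that scale the most abundant members in control brain were Il33 at 35.1 ± 7.64 (SD, n = 3) normalized counts per kilobase, Il18 at 23.8 ± 2.79 and Il34 at 22.0 ± 4.41. The intervals of Il18 and Il34 overlap, and both lay below that of Il33. In control liver the order was Il18 at 19.5 ± 4.75, Il1rap at 16.4 ± 1.97, Il11ra1 at 13.6 ± 1.304 and Il13ra1 at 11.8 ± 2.80, with each neighbouring pair within its spread. Il18 was thus near the top in both tissues, although it encodes a precursor that inflammasome cleavage must activate and its RNA level says nothing of that step.

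In brain, no member passed an adjusted p of 0.05 between heat stress and control in the quasi-likelihood test of edgeR, adjusted by Benjamini-Hochberg over all 14806 genes tested, and neither did any other gene (0.0% of genes called). Unadjusted, 7 of 31 tested members (22.6%) had p under 0.05, against 20.1% of all genes tested. This background moved with the setting, to 11.0% without control replicate 1 (7 of 32 members) and 9.13% in edgeR on all 12 libraries (7 of 38). The 7 of 32 include Il1r2, which passed the filter there only through heat stress libraries. Of the 7 of 31, 4 were higher in heat stress (Il15, Il18, Il1rapl1 and Il1rapl2) and 3 were lower (Il17ra, Il1r1 and Il6st), where the background is 10.0% in each direction. The smallest adjusted p among members was 0.170. DESeq2 run on the same 6 libraries gave 604 genes of the whole table at an adjusted p under 0.05. Among members it gave 1, Il6st, of the 7 for which it returned an adjusted p, and 8 of 69 at an unadjusted p under 0.05, beside 13.8% of all genes in that fit. The median log2 fold change of the tested members was -0.13, beside -0.00297 over all genes tested, and 15 of 31 were above 0, against 49.7% of all genes.

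Among the IL-1 family ligands in brain, the 4 tested members (Il18, Il18bp, Il1a and Il33) had log2 fold changes from 0.17 to 0.48. Il18, a cytokine of microglia and macrophages that induces interferon gamma in lymphocytes, measured 22.0, 27.7 and 24.0 normalized counts in the controls and 30.3, 41.5 and 30.6 in heat stress. All heat stress libraries lay above all control libraries, with replicate 2 of heat stress well above the rest. Its log2 fold change was 0.48 ± 0.16 (standard error), a 1.39-fold higher level, with an unadjusted p of 0.0132 and an adjusted p of 0.173. Without heat stress replicate 2 the log2 fold change was 0.31 (unadjusted p 0.0621). Il33, an alarmin of astrocytes and oligodendrocytes and the most abundant member of the brain, measured 80.6, 99.1 and 124.5 in the controls and 155.7, 112.1 and 102.8 in heat stress. These ranges overlap, and its log2 fold change of 0.29 ± 0.19 had an adjusted p of 0.426, with 0.08 without heat stress replicate 1 and 0.46 without control replicate 3. Il1b, a central inflammatory cytokine, was not tested in brain, with 8, 3 and 6 counts in the controls and 6, 12 and 6 in heat stress. After normalization for library size its heat stress libraries (0.554, 1.08 and 0.567) lay just above its control libraries (0.549, 0.262 and 0.486).

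The IL-1 family receptors of the brain fell on both sides of 0. Il1rapl2 and Il1rapl1 encode accessory proteins of neuronal synapses, which resemble the IL-1 receptor and are known from synapse formation. Il1rapl2 (ENSMUSG00000059203.10, chrX:137570608-138846946, GRCm38) measured 4.66, 5.85 and 5.50 in the controls and 9.51, 10.7 and 9.26 in heat stress, from 67 to 119 counts per library. The groups were well separated and each was tight. For Il1rapl2 the log2 fold change of 0.88 ± 0.18, a 1.84-fold higher level, was the highest among tested members in brain, with an unadjusted p of 0.000824 and an adjusted p of 0.170. In every one of 13 alternative settings it kept its sign and an unadjusted p under 0.05. Il1rapl1 measured 17.9, 24.2 and 18.3 in the controls and 24.8, 27.1 and 23.9 in heat stress, where control replicate 2 reached into the heat stress range. Its log2 fold change was 0.33 ± 0.15 (unadjusted p 0.0496, adjusted p 0.249), and only 3 of 13 alternatives kept p under 0.05. Il1r1, the signalling receptor of IL-1 that is strongest on brain endothelium, measured 4.46, 5.76 and 7.37 in the controls and 3.14, 4.48 and 3.49 in heat stress. Its groups overlap by 1 library, and the log2 fold change was -0.66 ± 0.26 (unadjusted p 0.0314, adjusted p 0.214). The sign was kept in all 13 alternatives and an unadjusted p under 0.05 in 9 of them.

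Il1r2 and Il13ra2 were near the floor in brain, and their groups did not overlap. Il1r2, which binds IL-1 without signalling, had 7, 2 and 1 counts in the controls and 10, 13 and 6 in heat stress. Il13ra2, the decoy and high-affinity chain for IL-13, had 4, 2 and 1 counts in the controls and 7, 25 and 9 in heat stress. After normalization, Il1r2 measured 0.480, 0.175 and 0.0810 in control against 0.923, 1.16 and 0.567 in heat stress, and Il13ra2 0.274, 0.175 and 0.0810 against 0.646, 2.24 and 0.850. Both failed the filter on low counts and were not tested in the edgeR fit described above. DESeq2, run without that filter, gave both an unadjusted p under 0.05 and no adjusted p. Without the filter, edgeR also gave both an unadjusted p under 0.05, beside 15.9% of all genes in that fit. Il1r2 also had p under 0.05 in edgeR without control replicate 1 and without heat stress replicate 3, and Il13ra2 without heat stress replicate 1. All genes in these fits were at 11.0%, 19.6% and 14.0%. Both members entered these fits only through heat stress libraries, where they are high, so nothing is read from these p-values. No member passed an adjusted p of 0.05 in these edgeR fits. Together with Il1b, Il1r2 and Il13ra2 were the 3 members with every heat stress library above every control library, of 13 untested members with more than 3 counts in at least 3 brain libraries (23.1%), against 6.77% of the 1417 untested genes of the same kind. Il13ra2 and Il1r2 reach that minimum only with the heat stress libraries, where they are high, so nothing is read from this share. None of the 13 lay the other way, against 4.45%. Neutrophil markers, whose cells carry Il1r2 and Il1b, summed to 6.31, 12.6 and 8.42 in control brain and 10.2, 35.6 and 9.26 in heat stress, with 6 of the 8 genes above the floor, Ly6g at 0 in every library, and the highest sum in heat stress replicate 2, the library in which these 3 members were also highest. Their part in the result was not tested.

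Of the common gamma chain group, Il15 was the one ligand tested in brain. This cytokine, made by many cell types and presented by the chain Il15ra, supports NK cells and memory T cells. Its counts were 20, 16 and 20 in the controls and 28, 33 and 24 in heat stress, or 1.37, 1.40 and 1.62 against 2.59, 2.96 and 2.27 normalized counts. The lowest heat stress library lay above the highest control library. Il15 had a log2 fold change of 0.83 ± 0.27, a 1.78-fold higher level, with an unadjusted p of 0.0140 and an adjusted p of 0.175. Il15ra measured 6.17, 4.54 and 5.02 in the controls and 6.65, 6.00 and 5.10 in heat stress, which overlap, with a log2 fold change of 0.17 ± 0.21. Il4ra, the receptor chain shared by IL-4 and IL-13, measured 7.75, 7.16 and 7.61 in the controls and 4.62, 6.90 and 4.82 in heat stress. All 3 heat stress libraries lay below control, replicate 2 only narrowly, and the log2 fold change of -0.46 ± 0.21 had an unadjusted p of 0.0558 and an adjusted p of 0.260.

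**Figure D2:**
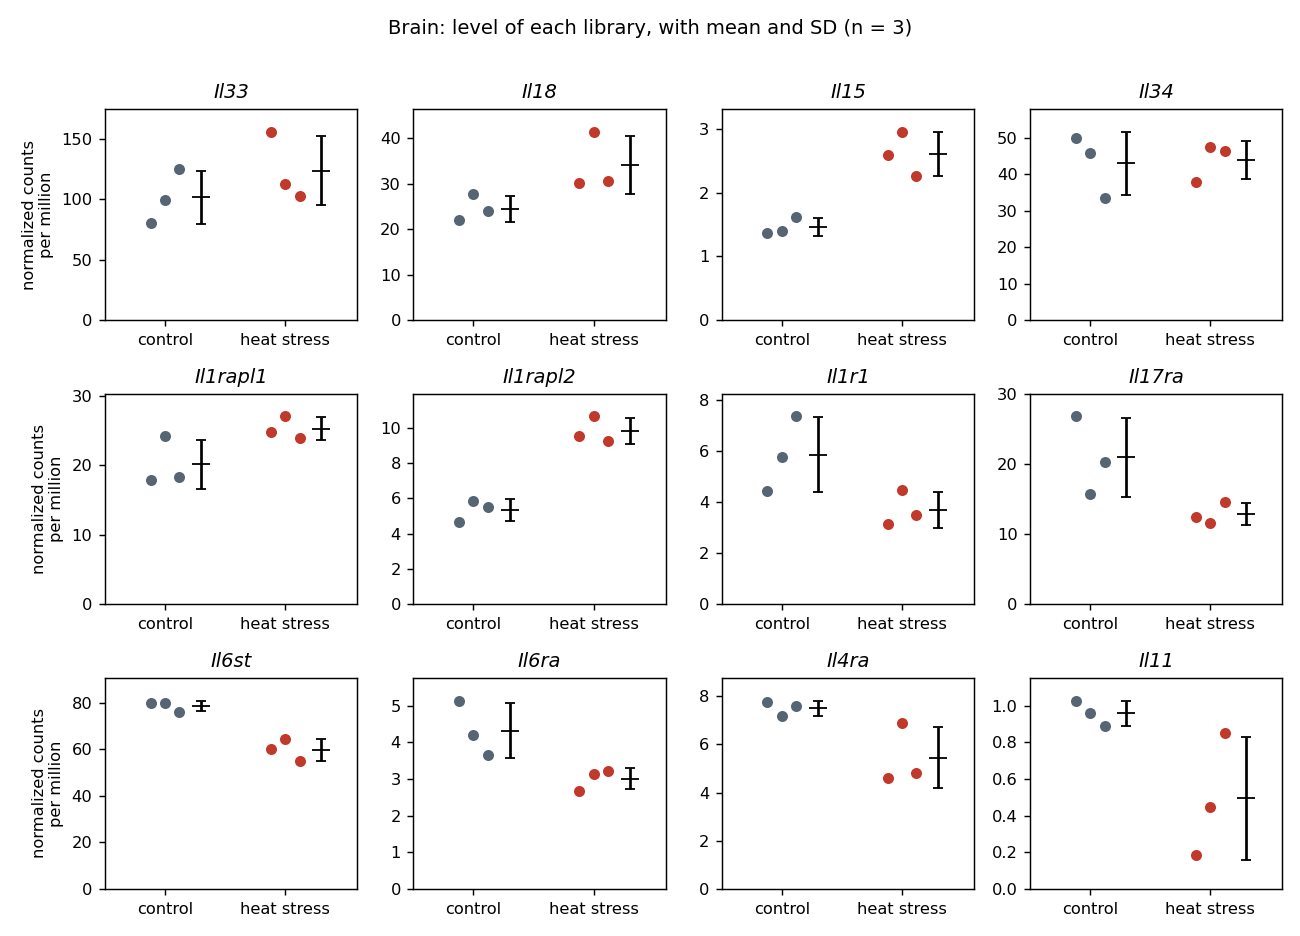
Normalized counts (CPM) (vertical axis, from 0) of 12 members in each brain library of the control and heat stress groups, with the mean and SD of 3 libraries beside the points. Il15, Il18 and Il1rapl2 show every heat stress point above control, and Il17ra, Il6st, Il6ra, Il4ra and Il11 show every heat stress point below it.

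Of the 4 IL-6 and IL-12 family receptors tested in brain, 3 had a log2 fold change below 0, and Il6st alone had an unadjusted p under 0.05. Il6st encodes the signal-transducing subunit shared by the receptors for IL-6, IL-11, LIF and CNTF. Il6st (chr13:112464070-112510086, GRCm38) measured 80.0, 79.9 and 76.2 in the controls and 59.9, 64.4 and 54.8 in heat stress, from 580 to 1167 counts per library. The control libraries were close together and every heat stress library lay clearly below them. Il6st had a log2 fold change of -0.40 ± 0.11, with an unadjusted p of 0.00408 and an adjusted p of 0.170 in edgeR's quasi-likelihood test, and an adjusted p of 0.0402 in DESeq2 on the brain libraries and 0.229 in DESeq2 on all 12 libraries. It kept its sign and an unadjusted p under 0.05 in all 13 alternatives, with log2 fold changes from -0.46 to -0.34. Il6ra, the IL-6 binding chain, measured 5.14, 4.19 and 3.64 in the controls and 2.68, 3.14 and 3.21 in heat stress. Its groups did not overlap, and the log2 fold change was -0.53 ± 0.24 (unadjusted p 0.0537, adjusted p 0.256). Il11, a ligand that signals through Il6st, had 15, 11 and 11 counts in the controls and 2, 5 and 9 in heat stress. It passed the filter on low counts only through the control libraries, where it is higher, so its non-overlapping groups are not read as a difference. The fitted log2 fold change of -0.95 ± 0.50 (adjusted p 0.315) was -0.57 without heat stress replicate 1 and -1.57 without heat stress replicate 3. Il11ra1 overlapped between groups, at 29.9, 30.9 and 32.4 in the controls and 32.0, 38.3 and 32.2 in heat stress (log2 fold change 0.14 ± 0.12, and 0.05 without heat stress replicate 2).

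In the IL-12 group the brain values turned on single libraries. Il12a, the p35 subunit of IL-12 and of IL-35, had 76, 16 and 9 counts in the controls and 8, 13 and 13 in heat stress. Only control replicate 1 was high, and the log2 fold change of -1.25 ± 0.67 (adjusted p 0.318) became -0.02 without that library. Il12rb2, the signalling chain of the IL-12 receptor, was not tested in brain, with 3, 2 and 5 counts in the controls and 1, 1 and 0 in heat stress. Its normalized levels did not overlap, but no library except control replicate 3 exceeded the floor, and its exons overlap those of Serbp1 on the other strand over 1519 bases.

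Of the 4 IL-17 receptor genes tested in brain, all had log2 fold changes below 0, from -0.70 to -0.14. Il17ra, the shared chain to which IL-17A and related ligands bind, measured 26.9, 15.7 and 20.4 in the controls and 12.5, 11.6 and 14.6 in heat stress. Each heat stress library lay below each control library, and the control libraries were widely spread. Its log2 fold change was -0.70 ± 0.20 (unadjusted p 0.00664, adjusted p 0.170), and -0.48 without control replicate 1. It kept its sign and an unadjusted p under 0.05 in all 13 alternatives. Il17d, the one IL-17 ligand tested, did not separate the groups, with 127, 103 and 71 counts in the controls and 95, 100 and 71 in heat stress. Il34, a ligand of the macrophage receptor Csf1r that is made by neurons and maintains microglia, measured 49.98, 45.7 and 33.4 in the controls and 38.0, 47.4 and 46.4 in heat stress. Here the log2 fold change of 0.03 ± 0.16 changed sign with single libraries left out.

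Counted over the tested members of the brain, the groups did not overlap for 8 of 31 (25.8%, against 24.9% of all genes tested). Il15, Il18 and Il1rapl2 were higher, and Il17ra, Il4ra, Il6ra and Il6st were lower. The remaining member is Il11, which passed the filter on low counts through the controls alone and is not read as lower. Markers of other cell types also differed between these libraries. All 8 endothelial markers were lower in heat stress at an unadjusted p under 0.05, with sums of 257.9, 125.3 and 149.7 in the controls and 83.7, 106.0 and 82.3 in heat stress, and control replicate 1, the highest, was also the highest for Il17ra and Il12a. Of 7 choroid plexus markers, 4 were lower, with sums of 1533, 1246 and 2476 against 647, 1124 and 260.5. Of 10 T and NK cell markers in the table, 4 were above the floor and 1 was tested, at an unadjusted p under 0.05 and higher, and their sums, 1.99, 2.36 and 2.67 in the controls against 2.77, 4.66 and 4.06 in heat stress, did not overlap. Of 10 tested microglia and macrophage markers, 3 were higher and 1 lower, with overlapping sums of 369.3 to 489.2 in the controls and 414.4 to 471.9 in heat stress. The part of these cell types in the values of Il6st, Il1r1, Il17ra, Il15 and the other members was not tested, and in tissue pieces fewer cells of a type and less RNA per cell cannot be told apart.

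In liver, no member passed an adjusted p of 0.05 in edgeR's quasi-likelihood test over 12296 genes, and no other gene did (0.0%). Unadjusted, 2 of 31 tested members (6.45%) had p under 0.05, against 5.84% of all genes tested, and both, Il15ra and Il15, were higher in heat stress (2.97% of all genes), while none was lower (2.87% of all genes). The smallest adjusted p among members was 0.846. The whole table moved with single libraries. At an adjusted p under 0.05 there were 25 genes without control replicate 1 and 81 without the pair with muscle transcripts, none of them members, and at an unadjusted p under 0.05 there were 12.9% of genes with 2 of 33 members and 10.4% with 2 of 32. Those were Il12rb1 and Il17rc in the first of these and Il12rb1 and Il1rn in the second, not Il15 and Il15ra. DESeq2 on the same 6 libraries gave 61 genes of the whole table at an adjusted p under 0.05, but 0 of 65 members at an unadjusted p under 0.05 (3.51% of all genes in that fit) and 0 members at an adjusted p under 0.05.

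Il15 and its presenting receptor chain were the members that came closest to a difference in liver. Il15 (chr8:82331632-82403222, GRCm38) had 28, 24 and 23 counts in the controls and 45, 46 and 33 in heat stress, or 1.81, 1.96 and 2.14 against 3.35, 3.21 and 2.60 normalized counts. All heat stress libraries lay above all control libraries. The log2 fold change was 0.64 ± 0.28, a 1.55-fold higher level (unadjusted p 0.0460, adjusted p 0.846), and 0.53 without the pair of libraries with muscle transcripts. Il15ra (chr2:11705290-11734317, GRCm38) measured 20.0, 26.4 and 30.7 in the controls and 35.7, 31.6 and 38.2 in heat stress. The groups again did not overlap, although control replicate 3 came close to heat stress replicate 2. The log2 fold change was 0.46 ± 0.20, a 1.37-fold higher level (unadjusted p 0.0426, adjusted p 0.846), 0.29 without control replicate 1, and 0.36 without the pair with muscle transcripts. Among libraries with the suffix 2nd, Il15 measured 1.96 in the 1 control library and a mean of 2.98 in heat stress, and Il15ra 26.4 and 37.0. Among those without it, Il15 had a mean of 1.98 in the controls and 3.21 in the 1 heat stress library, and Il15ra 25.3 and 31.6. The unadjusted p stayed under 0.05 in 4 of 15 alternatives for Il15 and in 6 of 15 for Il15ra, and the sign was kept in all of them. In brain, the same ligand had the log2 fold change of 0.83 given above, and its receptor chain 0.17.

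Il34 was the third of the tested liver members with every heat stress library above control. Untested, Il1r2 and Il2ra also had groups that did not overlap in this direction, and Il23a (2 counts in each control, 0 in heat stress) and Il4i1b (3, 2 and 4 counts against 1, 0 and 0) in the other, all with at most 5 counts in any library. Il34 measured 1.61, 0.897 and 1.86 in the controls and 2.09, 2.44 and 2.45 in heat stress, from 11 to 35 counts per library. Il34 had a log2 fold change of 0.67 ± 0.35 (unadjusted p 0.0818, adjusted p 0.900), which became 0.42 without control replicate 2 and 0.71 without the pair with muscle transcripts. With the suffix 2nd its mean was 0.897 in control and 2.27 in heat stress, and without it 1.74 and 2.44. The 3 non-overlapping members that were higher are 9.68% of those tested, against 5.38% of all genes, and the 1 that was lower, Il1rap, is 3.23%, against 5.73%. Il1rap encodes the accessory chain shared by the receptors for IL-1, IL-33 and IL-36 and was the second most abundant member per kilobase. It measured 172, 175 and 212 in the controls and 170, 168 and 169 in heat stress, so that the gap to the nearest control library was small. Its log2 fold change was -0.14 ± 0.17 (adjusted p 0.960) and -0.04 without control replicate 3, and its exons overlap those of Gm20319 on the other strand over 552 bases.

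Inflammatory IL-1 family ligands were scattered in liver. Il1b, whose exons overlap the antisense Il1bos over 25 bases, had 19, 37 and 156 counts in the controls and 220, 90 and 142 in heat stress, or 1.23, 3.02 and 14.5 against 16.4, 6.27 and 11.2 normalized counts. Control replicate 3 lay within the heat stress range and the other control libraries below it. The log2 fold change of 0.88 ± 0.85 had an adjusted p of 0.947, and ranged from 0.35 without control replicate 1 to 2.42 without control replicate 3. Its direction turned with the suffix 2nd, from 3.02 in control and 13.8 in heat stress among libraries with it to 7.88 and 6.27 among those without it. The only heat stress library without the suffix, replicate 2, also held muscle transcripts, so suffix and muscle cannot be told apart here. Il1rn, the IL-1 receptor antagonist and an acute phase product of hepatocytes, measured 1.10, 1.06 and 1.77 in the controls and 3.28, 1.53 and 2.21 in heat stress, with a log2 fold change of 0.85 ± 0.39 (unadjusted p 0.0562, adjusted p 0.863). It overlapped by 1 library, and its unadjusted p fell under 0.05 without control replicate 3, without heat stress replicate 2 and without the pair with muscle transcripts. Il18 measured 14.9, 24.6 and 20.8 in the controls and 23.2, 19.1 and 19.0 in heat stress, and its log2 fold change of 0.03 ± 0.21 changed sign with single libraries left out. Il33 had only 13 to 38 counts per liver library and a log2 fold change of -0.10 ± 0.40. Both also turned with the suffix, Il18 from 24.6 in control and 21.1 in heat stress with it to 17.9 and 19.1 without it, and Il33 from 1.71 and 1.43 to 2.08 and 2.65.

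**Figure D3:**
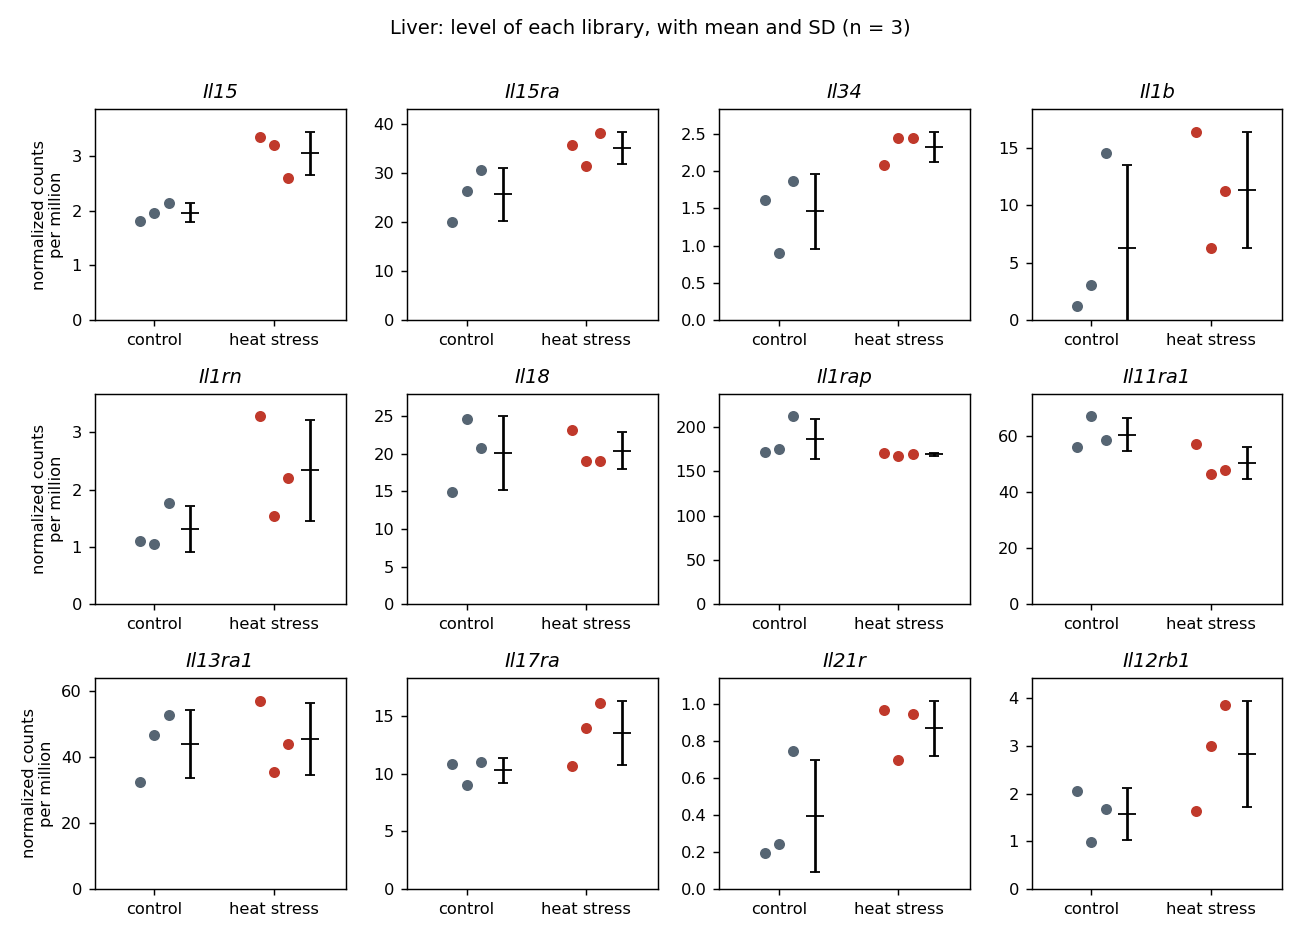
Normalized counts (CPM) (vertical axis, from 0) of 12 members in each liver library of the control and heat stress groups, with the mean and SD of 3 libraries beside the points; the lower SD bar of Il1b in control is cut at 0. Il15, Il15ra and Il34 show every heat stress point above control, whereas control replicate 3 of Il1b lies among the heat stress points.

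A few receptor chains at low levels in liver are given as examples, chosen after their values were seen, and none of them had an unadjusted p under 0.05 in the test described above. In single alternatives Il12rb1 did (without the pair with muscle transcripts, without control replicate 1, without heat stress replicate 1 and with the suffix as a covariate), as did Il21r (both fits on 12 libraries, and without control replicate 3) and Il2rg (without control replicate 3). Il21r, the IL-21 receptor, had 3, 3 and 8 counts in the controls and 13, 10 and 12 in heat stress. For this receptor the log2 fold change of 1.20 ± 0.56, the largest among tested liver members, had an adjusted p of 0.871. It reached the level that the filter on low counts asks for in 1 control library and in 3 of heat stress, and its normalized levels overlapped by 1 library (0.194, 0.245 and 0.746 against 0.968, 0.697 and 0.946). Il12rb1, shared by the IL-12 and IL-23 receptors, measured 2.07, 0.979 and 1.68 in the controls and 1.64, 3.00 and 3.86 in heat stress (log2 fold change 0.83 ± 0.41, adjusted p 0.882). Il2rg, the common gamma chain itself, had a log2 fold change of 0.65 ± 0.37 and Il2rb, the shared chain of IL-2 and IL-15, one of 0.52 ± 0.39, and for both the groups overlapped, as they did for Il27ra, the IL-27 receptor chain, at -0.30 ± 0.38. Of 10 T and NK cell markers present in the table, 7 were tested and 3 were higher in heat stress at an unadjusted p under 0.05. Their summed level was 3.29, 6.77 and 7.74 in the controls and 18.3, 10.2 and 11.5 in heat stress, without overlap. The sum of B cell markers overlapped, from 9.62 to 24.4 in the controls and from 16.1 to 32.5 in heat stress, as did that of macrophage markers, from 172.9 to 261.0 and from 221.7 to 335.3. The part of these cells in the values of Il21r, Il2rb, Il2rg, Il15ra and Il1b was not tested.

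For Il11ra1, Il13ra1, Il17rc and Il17ra the liver groups overlapped. Il11ra1 measured 56.0, 67.2 and 58.7 in the controls and 57.1, 46.5 and 48.0 in heat stress (log2 fold change -0.26 ± 0.17, adjusted p 0.934). Il13ra1, which pairs with Il4ra, measured 32.5, 46.5 and 52.8 in the controls and 57.0, 35.4 and 44.0 in heat stress, and Il17rc, the partner chain of Il17ra, 28.7, 16.2 and 18.1 against 20.6, 26.9 and 25.2. Il17ra measured 10.8, 9.05 and 11.0 in the controls and 10.7, 13.9 and 16.2 in heat stress, a log2 fold change of 0.40 ± 0.21 (adjusted p 0.906), or 0.24 without heat stress replicate 3. Within the libraries with the suffix and within those without it, Il17ra and Il17rc had the higher mean in heat stress and Il11ra1 and Il1rap the lower one. With it, the means in control and heat stress were 9.05 and 13.4 for Il17ra, 16.2 and 22.9 for Il17rc, 67.2 and 52.6 for Il11ra1 and 175 and 169.8 for Il1rap. Without it, they were 10.9 and 13.9, 23.4 and 26.9, 57.4 and 46.5, and 192 and 167.5. By contrast, Il13ra1 went from 46.5 in control to 50.5 in heat stress with it and from 42.6 to 35.4 without it. Il12a, Il12rb2 and Il1r2 were at the floor in liver. Il12a had 1, 0 and 1 counts in control liver and 0 in heat stress, Il12rb2 0, 1 and 1 against 0, and Il1r2 2, 1 and 0 against 3, 2 and 3. Il13ra2 was above the floor in 1 library of each group, with 1, 9 and 0 counts in the controls and 0, 1 and 8 in heat stress. Of the 6 untested liver members with more than 3 counts in at least 3 libraries, none had groups that did not overlap, where 6.75% of all such genes were higher and 4.65% lower.

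Across the 31 tested liver members, 26 (83.9%) had a log2 fold change above 0, against 51.8% of all genes tested, and the median was 0.29, against 0.01 for all genes. The 5 below 0 were Il11ra1, Il1rap, Il27ra, Il33 and Il4ra. In the alternatives 23 to 26 of the 31 were above 0, or 19 of the 22 left by a stricter filter. Members share cell types, so this count is a description and not a test, and single differences were within the spread of the libraries for most of them.

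Whether the response differed between the tissues was tested directly, as the log2 fold change in liver minus that in brain, over 15824 genes and all 12 libraries. No member passed an adjusted p of 0.05 in edgeR's quasi-likelihood test (smallest 0.516), and 1 gene of the whole table did, with the lower value in liver (0.00632%). DESeq2 on all 12 libraries gave 0 members at an adjusted p under 0.05, of 48 genes, and 5 of 72 at an unadjusted p under 0.05, beside 8.28% of all genes in that fit. In edgeR 6 of 38 members had an unadjusted p under 0.05 (15.8%, against 9.64% of all genes), and in all of them the value for liver was above that for brain (15.8%, against 3.73% in this direction and 5.91% in the other). Over all 38 members the value for liver was above that for brain in 27 (71.1%, against 46.7%). The 6 were Il17ra, Il1r1, Il6st, Il21r, Il16 and Il17d. Il17d, like Il11, Il17rd, Il18rap, Il1b, Il1rn, Il20rb, Il22ra1 and Il2rb among the 27, passed the filter on low counts in only 1 tissue, so nothing is read from these shares. For Il17ra the difference was 1.09 ± 0.32 (unadjusted p 0.00446), beside -0.70 in brain and 0.40 in liver in the fits of each tissue. For Il1r1 it was 0.94 ± 0.33 (p 0.0123), beside -0.66 and 0.29. Both kept an unadjusted p under 0.05 in all 16 alternatives. With the replicate number within a treatment as a block, 3 of the 6 kept it, namely Il17ra, Il1r1 and Il6st. For Il6st the difference was 0.50 ± 0.20 (p 0.0279), beside -0.40 and 0.11, and 13 of 16 alternatives kept p under 0.05. Il21r (1.42 ± 0.64) and Il16 (0.76 ± 0.35), a chemoattractant for CD4+ cells whose exons overlap Stard5 on the other strand over 1202 bases, kept it in 5 and 8 of 16, and Il21r was at 2.16 without liver control replicate 3. In liver, Il21r had 3, 3 and 8 counts in the controls and 13, 10 and 12 in heat stress. Only 1 control library reached the level of the filter in the liver fit, so nothing is read from the difference of Il21r. Il17d had 0 to 3 counts in every liver library, so its fitted difference is not given. For Il15, whose groups did not overlap in either tissue, the difference was -0.20 ± 0.35 (adjusted p 0.869).

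**Figure D4:**
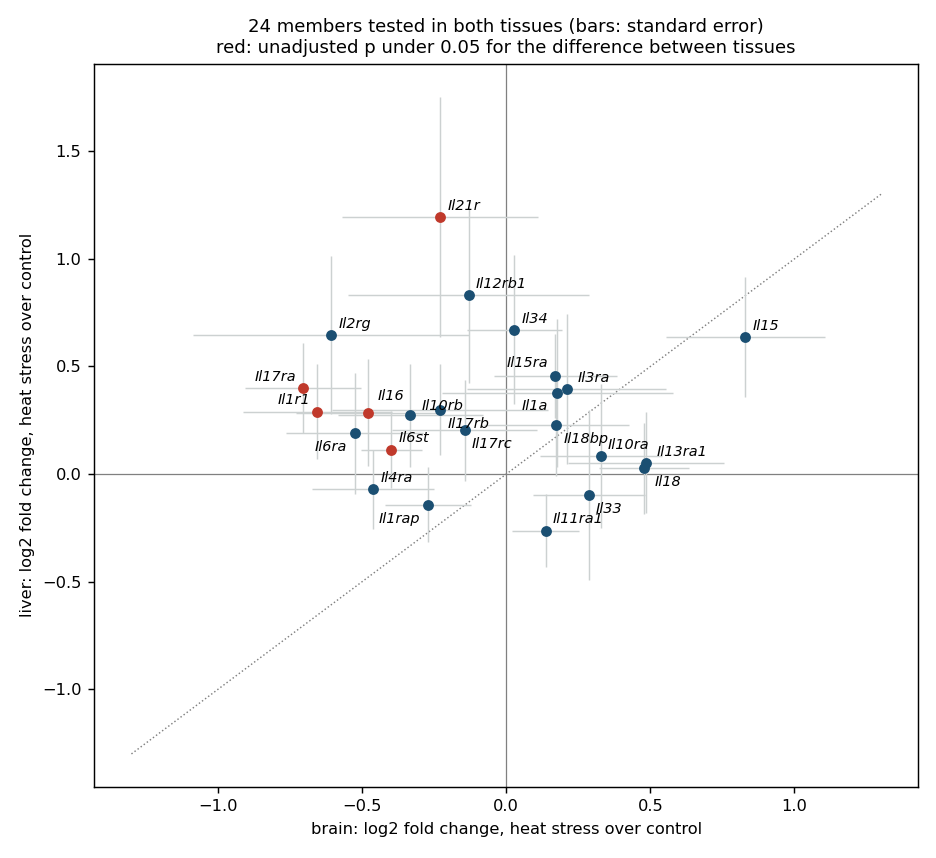
Log2 fold change of heat stress over control in brain (horizontal axis) and in liver (vertical axis) for the 24 members tested in both tissues, with standard errors as bars and the line of equal change dotted. Il17ra, Il1r1, Il6st, Il21r and Il16, in red, lie above the line with an unadjusted p under 0.05 for the difference between tissues, and Il15 lies near the line at the right. Il21r was near the floor in control liver, with 3, 3 and 8 counts, and is not read as a difference.

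The question of how the tissues differ without heat was read from the control libraries. Between control liver and control brain, 27 of 33 members tested passed an adjusted p of 0.05 and a log2 fold change past 1 in edgeR's quasi-likelihood test (81.8%, against 64.5% of 15213 genes). Of these, 19 were higher in liver (57.6%, against 27.8% of all genes) and 8 were higher in brain (24.2%, against 36.7%). Of the 27, 10 passed the filter on low counts through 1 tissue alone and so had to differ (Il11, Il17d, Il17rd, Il1b, Il1rapl1, Il1rapl2, Il1rn, Il21r, Il22ra1 and Il27ra), so nothing is read from these shares. The median log2 fold change, liver over brain, was 1.69 for members, these 10 included, and -0.20 for all genes, and nothing is read from it either.

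Of the 8 members called higher in brain, Il33 and Il34 passed the filter on low counts in both tissues. Il17rd, Il21r, Il1rapl1, Il1rapl2, Il17d and Il11 passed it through brain alone, so nothing is read from their calls. Il33 measured 69.3 ± 15.5 normalized counts in control brain and 2.93 ± 0.780 in control liver (SD, n = 3), which is 23.4-fold higher in brain. Il34 was 13.5-fold higher, at 29.3 ± 5.72 against 2.17 ± 0.787. Both differences were far outside the spread of the libraries, with adjusted p-values of 4.07e-07 and 2.27e-06. Il17rd, a chain that restrains FGF and IL-17 signalling, passed the filter on low counts through brain alone, and its levels of 3.68 ± 0.781 and 0.427 ± 0.171 are a description. Il1rapl1 had 261, 277 and 226 counts in control brain and 2, 0 and 0 in control liver, and Il1rapl2 had 68, 67 and 68 against 1, 0 and 0. Liver control replicate 1, the only liver library with counts for either, was also the one with the highest neuronal marker sum. Il17d had 127, 103 and 71 counts in control brain and 0 in all 3 liver controls, and Il11 had 15, 11 and 11 against 0. These counts, too, are a description.

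The members higher in liver included ligands, receptors and antagonists. The ligand Il1b measured 9.01 ± 10.3 in control liver and 0.295 ± 0.104 in control brain, but it passed the filter on low counts through liver alone, so nothing is read from this difference. Il1a, whose exons overlap Gm14023 on the other strand over 222 bases, was 5.93-fold higher. Il1rap measured 275.5 ± 28.5 in control liver and 35.8 ± 6.72 in control brain, a 7.69-fold difference, and Il1r1 was 7.42-fold higher, at 29.7 ± 3.16 against 4.004 ± 1.02. Il15ra was 10.5-fold higher, at 37.7 ± 6.00 against 3.58 ± 0.573, while its ligand Il15 was 2.90-fold higher, at 2.91 ± 0.155 against 0.999 ± 0.101. The chains that form the type II IL-4 receptor were both higher, Il13ra1 by 9.40-fold and Il4ra by 6.22-fold, as were Il17rc by 10.7-fold and Il17rb by 8.94-fold. Il22ra1, the IL-22 receptor chain of epithelia and hepatocytes, had 93, 54 and 41 counts in liver controls and 1, 2 and 0 in brain controls, and Il1rn 17, 13 and 19 against 1, 0 and 1. Both passed the filter on low counts through liver alone, so these counts are a description. Il18bp, the secreted binder of IL-18, was 3.50-fold higher, whereas Il18 itself was 1.76-fold higher and below the fold threshold, as was Il6st at 1.62-fold. Il17ra (14.3 ± 3.84 in brain and 15.3 ± 2.33 in liver) and Il16 (5.37 ± 1.15 and 5.70 ± 0.586) did not differ beyond their spread, and the sign of both turned when single libraries were left out.

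**Figure D5:**
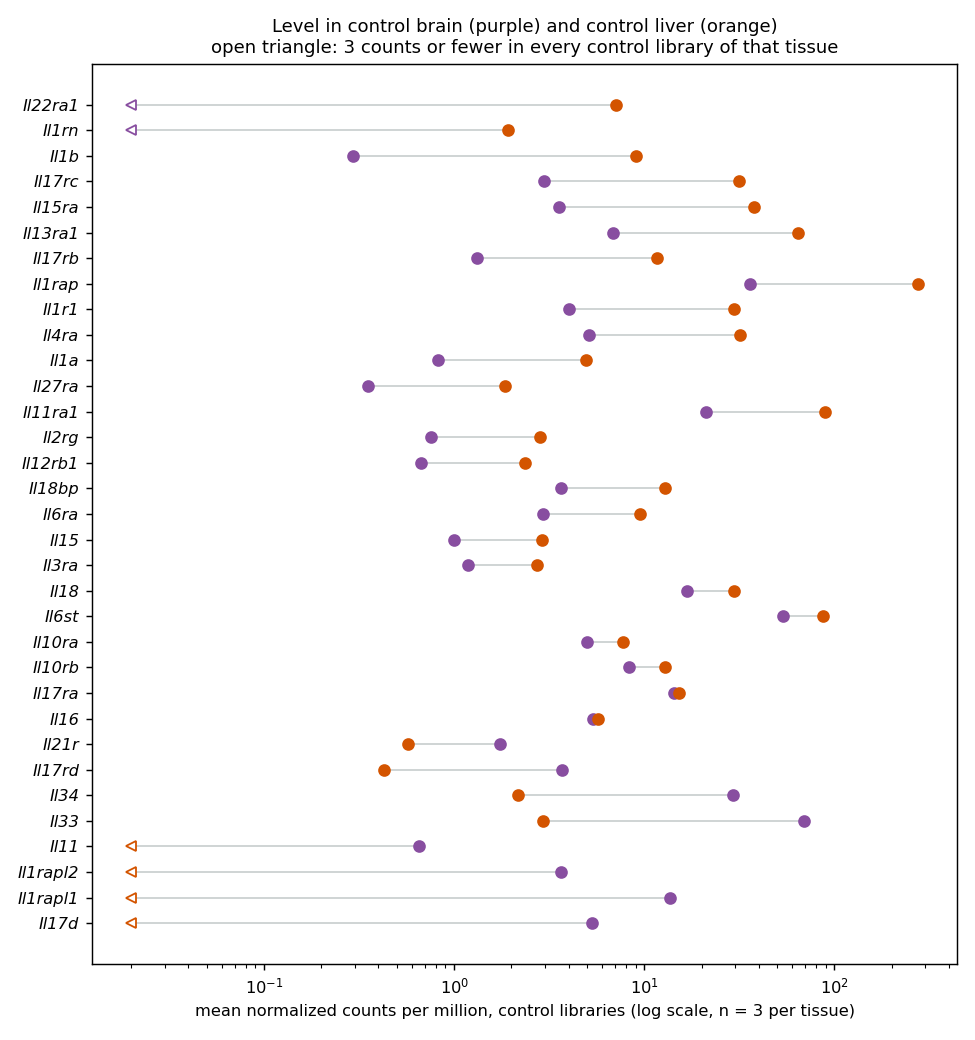
Mean normalized counts (horizontal axis, log scale) of 33 members in control brain and control liver, 3 libraries each, ordered by the log2 fold change between tissues. Most points for liver lie to the right of those for brain, but 10 of the members passed the filter on low counts through 1 tissue alone. Open triangles at the left edge mark members with 3 counts or fewer in every control library of that tissue.

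Genes of the same pathways that do not carry the Il prefix were read from the same fits, and none passed an adjusted p of 0.05 in edgeR's quasi-likelihood test. Of 16 partner subunits and ligands, 13 were tested in brain, where none was higher and 3 were lower at an unadjusted p under 0.05, beside 10.0% of all genes in each direction, and 10 were tested in liver, where none was higher or lower. In brain these were Cntfr, the CNTF receptor chain that pairs with Il6st (67.3 ± 7.80 in the controls and 53.1 ± 4.72 in heat stress, SD, n = 3), Lif, a ligand of the same receptor group (1.22 ± 0.379 and 0.612 ± 0.177), which like Il11 passed the filter through the control libraries alone and is not read as a difference, and Csf1r, the receptor of Il34 (90.8 ± 20.9 and 61.5 ± 3.83). Csf1r is also the 1 lower gene among the microglia and macrophage markers given above, of which 3 were higher. Of 11 JAK and STAT genes, all tested in brain, 2 were lower at an unadjusted p under 0.05 (the same 10.0% applies) and none higher, namely Stat3, which signals below Il6st (48.4 ± 0.240 in the controls and 36.2 ± 2.25 in heat stress, log2 fold change -0.42 ± 0.10, adjusted p 0.170), and Jak1 (151.9 ± 18.5 and 120.8 ± 7.15). In liver 10 of these were tested and none had p under 0.05. The 14 adaptors and kinases of IL-1 and IL-17 receptors were all tested in both tissues, and none had an unadjusted p under 0.05 in either.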

How the data were processed

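RNA of brain and liver pieces was sequenced from TruSeq stranded, poly(A)-selected libraries. The authors deposited raw counts per gene as whole numbers, with columns for all 12 libraries. Per the submitters' processing notes, FastQC 0.11.9, Trimmomatic 0.39, HISAT2 2.2.1, featureCounts of Subread 2.0.1 and DESeq2 1.22.2 were used on mm10, while the methods also describe TopHat2 and HTSeq. The annotation release, use of strand and handling of shared reads are not given in the sources used here, so a member that overlaps a gene on the other strand, or has near-identical copies, is uncertain. Tables of the authors' own comparisons (fold changes and p-values) were not used.

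Counts were fitted in edgeR 4.0.16 (R 4.3.3) with TMM normalization, the filterByExpr filter (minimum count 10, minimum total 15) and the robust quasi-likelihood test within each tissue, across all 12 libraries for the difference between tissues, and in the 6 control libraries. P-values were adjusted by Benjamini-Hochberg over all genes tested, and calls needed an adjusted p under 0.05 and a log2 fold change past 1. Normalized counts are TMM-scaled CPM of each fit, so levels are compared only within a fit (the scale of the control tissue fit differs from that of the fits within a tissue). Same-numbered brain and liver libraries deviated together in control (correlations 0.28, 0.26 and 0.10, all over 0.1) but not in heat stress (0.04, -0.14 and 0.01). The numbers may therefore pair the control tissues, but the labels do not say so and the main fits did not use it. In the control tissue fit a replicate block left 27 members called, as without it. The scripts were tested on simulated data. DESeq2 1.42.0, other scalings and filters, a replicate block and single libraries left out were the alternatives.

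Libraries held 10466198 to 15609040 counts, and floors cover counting error only. Exon lengths, overlaps and sequences came from GENCODE M21 (GRCm38), in which 83 of 84 members were found; Il4i1b was not.

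Members named with all libraries were those with an unadjusted p under 0.05, those with non-overlapping groups and more than 3 counts in at least 3 libraries, those after which the study names pathways or genes, and the 5 highest per kilobase in each tissue. Others are named as examples of their family, chosen after their values were seen. The members, lists and rules were chosen with earlier results of these data known.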

Additional observations from a re-analysis of the deposited data

How the results depend on the processing

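No alternative that was run put a member past both thresholds in the heat comparisons of either tissue or in their difference. DESeq2 on the brain libraries gave 1 member at an adjusted p under 0.05. Further members had an unadjusted p under 0.05 only in alternatives. Il4ra in brain did so in both fits on 12 libraries, without a filter and without heat stress replicate 2. Il33, Il6ra and Il12a in brain did so without control replicate 3. In liver this held for Il34 (both fits on 12 libraries, suffix as covariate), Il17ra (without heat stress replicate 1) and Il1b (without control replicate 3). Between 5.49% and 15.9% of all genes had such a p in these fits. In liver 2 of 31 members had an unadjusted p under 0.05, beside 5.84% of all genes, and the percentages that follow are likewise shares of all genes in the same fit. There were 0 with DESeq2 on the liver libraries (3.51%), with RLE size factors (5.82%) and with the replicate block (2.61%). On all 12 libraries DESeq2 gave 5 of 72 (7.63%) and edgeR 5 of 38 (8.77%). Single libraries left out gave 0 to 5. These were 0 of 32 without control replicate 2 (3.27%), 5 of 32 without control replicate 3 (5.49%) and 1 of 33 without heat stress replicate 3 (3.31%) at the extremes. The replicate block also left 3 of 6 members at an unadjusted p under 0.05 in the difference between tissues, or 3 of 38 tested, beside 9.3% of all genes. Between control and heat stress, replicate numbers do not pair the samples: same-numbered deviations correlated at -0.30, 0.23 and -0.20 in brain and -0.63, -0.55 and -0.09 in liver. The block changed no other count of members by over 1.5 times, but in liver it took the genes at an unadjusted p under 0.05 from 718 to 321. A floor of 10 counts left 7 members counted and 31 at the floor in brain, and 2 counted in liver.

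Direction turned for small values. In brain, Il34 became -0.13, -0.03 and -0.01 without control replicate 3, heat stress replicate 2 and heat stress replicate 3, in a range from -0.13 to 0.15. In liver, Il13ra1, Il18 and Il33 became -0.14, -0.16 and 0.07 without control replicate 1, -0.16, -0.09 and 0.19 without heat stress replicate 1, and -0.071, -0.0605 and 0.0632 with the suffix 2nd as a covariate, which was chosen after seeing the data. Their ranges with single libraries left out were -0.16 to 0.20, -0.16 to 0.20 and -0.46 to 0.19. Il18 was also -0.12 without the pair of libraries with muscle transcripts. Between control tissues, Il16 became -0.0686 and -0.0538 without brain control replicates 1 and 3 (range -0.0686 to 0.22), and Il17ra -0.15, -0.00982 and -0.0149 (range -0.15 to 0.25) without brain control replicates 2 and 3 and liver control replicate 1. The cause was not tested. For members below the filter, depth limits what could be detected.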
